A study of Mus musculus with 12 samples.

Results

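The regions described here are promoters that carried acetylated lysine 8 of histone H4 (H4K8ac) in every H4K8ac library of a comparison between neonatal and adult oligodendrocyte progenitor cells (OPCs). Their members were chosen by the measured peaks themselves: the peaks of the 6 deposited lists were merged wherever they shared at least 1 bp, and a merged region was kept if all 6 lists had a peak in it and every list had a peak there that its annotation placed in a promoter, within 3000 bp of a transcription start site. Of 98027 merged regions, 4647 had a peak in all 6 lists and 4310 met the whole rule. Presence in a list, the fold enrichment and the q-value behind it therefore describe these regions and test nothing.

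The cells were sorted by green fluorescence from the forebrain of PdgfrαH2BEGFP mice, which carry a nuclear histone H2B-EGFP reporter of the Pdgfra gene, at postnatal day 5 (neonatal, 3 libraries) or postnatal day 60 (adult, 3 libraries). Both groups shared that genotype and sorting scheme. The reporter protein can persist in cells that have stopped expressing Pdgfra, and the labels call the replicates biological without stating how many animals each pooled. The 6 input libraries were not analysed here, and the files hold no read counts, so the depth of each library is unknown. With 3 libraries against 3 the exact permutation test cannot give a p-value below 0.1.

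H4K8ac is laid down by acetyltransferases such as the CBP and p300 pair, is removed by histone deacetylases, and is bound by bromodomain proteins. It is found around the start sites of active genes, in the nucleosomes that flank the nucleosome-poor stretch where the transcription machinery assembles. OPCs are dividing glial cells marked by the growth factor receptor PDGFRα and the proteoglycan NG2, and they give rise to the myelin-forming oligodendrocytes. Neonatal OPCs divide and differentiate faster than adult ones.

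The DNA before the start site is shown for 5 members that represent the patterns described further on. Fbxl14 (chr6:119479468-119479667, plus strand) and Atp6v0c (chr17:24169451-24169650, minus strand) are among the most enriched promoters in all libraries, Plekhh1 (chr12:79028963-79029162, plus strand) ranked much higher in adult libraries, Atrnl1 (chr19:57610834-57611033, plus strand) much higher in neonatal libraries, and Sox4 (chr13:28953700-28953899, minus strand) is a lineage transcription factor whose peaks lie wholly on the gene side of its start. Each run is the 200 bases before the RefSeq start site in GRCm38, written 5′ to 3′ in the direction of transcription. Capitals mark GC boxes (GGGCGG or its complement CCGCCC) and CCAAT boxes (CCAAT or its complement ATTGG) where they occur.
Fbxl14: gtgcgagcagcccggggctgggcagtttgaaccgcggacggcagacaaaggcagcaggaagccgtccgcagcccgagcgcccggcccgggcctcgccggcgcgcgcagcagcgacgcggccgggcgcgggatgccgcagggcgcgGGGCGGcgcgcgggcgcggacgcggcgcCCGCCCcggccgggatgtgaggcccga
Atp6v0c: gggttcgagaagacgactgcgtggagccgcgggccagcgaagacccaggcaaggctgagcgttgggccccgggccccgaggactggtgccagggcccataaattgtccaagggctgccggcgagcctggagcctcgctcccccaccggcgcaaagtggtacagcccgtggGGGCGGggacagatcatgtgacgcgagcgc
Plekhh1: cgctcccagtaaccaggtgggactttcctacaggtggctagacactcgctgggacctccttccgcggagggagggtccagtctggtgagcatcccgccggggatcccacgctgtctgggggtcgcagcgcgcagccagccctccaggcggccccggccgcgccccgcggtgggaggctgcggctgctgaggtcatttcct
Atrnl1: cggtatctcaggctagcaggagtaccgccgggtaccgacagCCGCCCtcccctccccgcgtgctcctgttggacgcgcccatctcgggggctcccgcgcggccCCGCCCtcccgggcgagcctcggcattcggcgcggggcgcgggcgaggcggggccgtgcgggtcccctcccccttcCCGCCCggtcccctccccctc
Sox4: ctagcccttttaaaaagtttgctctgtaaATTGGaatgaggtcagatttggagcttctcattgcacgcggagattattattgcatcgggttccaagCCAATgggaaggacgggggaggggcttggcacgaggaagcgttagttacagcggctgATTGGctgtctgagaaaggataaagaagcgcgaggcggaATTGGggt

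The Fbxl14 stretch is 82.0% G and C, holds 2 GC boxes and lay under a peak along all 200 bases in each of the 6 libraries. Atp6v0c has 1 GC box and was covered over all 200 bases except in neonatal replicate 3, with 160. Plekhh1 has neither box here, and its 200 bases were covered fully in the adult libraries, and over 80, 200 and 108 bases in neonatal replicates 1, 2 and 3. Atrnl1 has 3 GC boxes and was covered over 67, 200 and 92 bases in the neonatal and 200, 67 and 123 in the adult libraries. In Sox4, with 4 CCAAT boxes and equal shares of G and C and of A and T, no base of the stretch lay under a peak in any library.

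Promoter windows of 300 bases (250 before to 50 after the start) were available in the RefSeq table for 3009 of the 4310 regions, 69.8%, by a start on the same strand within 500 bp. Because this is under 80%, the composition and motif values hold for those 3009 windows, and a check of the whole set is void. Their median G and C share was 66.7% (quartiles 60.7% and 73.0%), against 52.7% over all 32851 RefSeq windows, and the median ratio of observed to expected CpG was 0.858 against 0.384. A GC box (GGGCGG, bound by the SP and KLF families), searched on both strands, was present in 76.3% of them and in 35.7% of all windows. CCGGAAG, an ETS family motif, was in 14.6% against 8.86%, and TGCGCATGC, the NRF1 motif, in 3.36% against 1.52%. The YY1 motif AAGATGGC was in 5.08% against 2.75%, the cyclic AMP response element TGACGTCA in 2.92% against 1.79%, and the E-box CACGTG of USF and MYC in 10.0% against 7.15%. CAGCTG, an E-box core used by OLIG factors among others, was in 14.4% against 16.3%, and AACAAT, a core of Sox motifs, in 4.55% against 10.7%. CCAAT, the NFY motif, was in 29.5% against 37.4%, and TATAAA on the coding strand between 45 and 16 bases before the start in 0.665% against 2.14%. The other motifs were searched on both strands, no motif contains another, and a match describes letters in a window whose base composition differs between the sets. Promoters with a peak in all 3 adult and no neonatal list had windows for 2144 of 5929 (36.2%), with medians of 57.0% and 0.645. There the GC box was in 54.3%, ETS in 10.7%, NRF1 in 2.71%, YY1 in 3.68% and TGACGTCA in 2.61%. CACGTG was in 8.26%, CAGCTG in 17.0%, AACAAT in 8.21%, CCAAT in 45.1% and TATAAA in 1.45%. Part of the difference from all windows was thus shared by other marked promoters, except for CCAAT and CAGCTG. For these 2 motifs the members lay below all windows and the promoters of the adult lists alone above them.

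The regions had a median length of 1502 bp, from 269 to 23046. Protein-coding genes were assigned to 4045 of them (93.9%), long non-coding RNAs to 113 and microRNAs to 16, in all 4168 distinct genes. In 685 regions (15.9%) the promoter peaks named more than 1 gene. A RefSeq start of another gene, on the opposite strand and at most 1000 bp upstream, accompanied 516 regions.

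Over the whole genome, 19489 regions had a promoter peak in all 3 adult lists and 4444 in all 3 neonatal lists. The 4310 regions made up 22.1% of the adult ones and 97.0% of the neonatal ones, so they are close to the full set of promoters found in every neonatal library. Another 3241 promoter regions were found in 5 of the 6 lists. In 1951 of these the absent list was neonatal replicate 3, in 1224 neonatal replicate 1 and in none neonatal replicate 2; the adult lists accounted for 3, 35 and 28. The neonatal lists held 9097, 31189 and 7353 peaks and the adult lists 72278, 72661 and 77002, and the shortest 2 lists accounted for nearly all of the regions that missed by 1 list. Peaks in the regions made up 57.9%, 19.6% and 68.5% of the neonatal lists and 8.16%, 8.38% and 6.25% of the adult lists.

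Members just inside and just outside the rule show how it divides. The weakest −log10 q of any member was 1.32, for Pde1b, a cyclic nucleotide phosphodiesterase, in adult replicate 1; Acsl5, an acyl-CoA synthetase, followed with 1.34 in adult replicate 2, and Gm10138 with 1.35 in neonatal replicate 1. Just outside lay Cirbp, a cold-inducible RNA-binding protein, with folds of 8.05 and 16.2 in neonatal replicates 1 and 2 and 21.2, 21.6 and 20.1 in the adult libraries but no peak in neonatal replicate 3. Commd3 was kept out by neonatal replicate 1 and 1700096K18Rik by neonatal replicate 3, each with an adult fold of at least 13.6. Strongly enriched promoters can thus be absent from the set through 1 short list.

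Which genes these promoters belong to was described with 19 gene lists, against 17.9% of 21896 protein-coding genes and 34.8% of the 11129 protein-coding genes whose promoter was marked in every adult library. Genes that build and read chromatin were frequent: 22 of 30 histone methylation genes (73.3%) and 20 of 37 histone acetylation genes (54.1%) had a member region. The acetylation genes included the acetyltransferases Ep300, Crebbp, Kat2a, Kat2b, Kat5, Kat6a and Kat6b, the deacetylases Hdac2, Hdac4, Hdac5, Hdac7, Hdac10, Hdac11 and Sirt1, and the bromodomain protein Brd2. Transcription factors that bind promoters in most cell types followed with 19 of 30, among them Sp1, Sp3, Nrf1, Gabpa, Ctcf and Yy1. Splicing factors had 21 of 36 and translation factors 15 of 29.

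Other lists of broadly expressed genes had smaller shares. Of their genes marked in every adult library, 3.57% to 30.3% had a member region, beside 34.8% of all such protein-coding genes. Of all their genes the share was 3.23% for the proteasome, 15.6% for the cell cycle and 17.5% for RNA polymerase II and Mediator. For oxidative phosphorylation it was 17.6% and for ribosomal proteins 27.8%, beside 17.9% of all protein-coding genes. The proteasome had a member region at 1 of 31 genes, Psmd11, although 28 of the 31 had a promoter peak in every adult library. RNA polymerase II and Mediator genes had 7 of 40 with 37 in all adult libraries, oxidative phosphorylation genes 6 of 34 with 29, and cytosolic ribosomal proteins 10 of 36 with 33. Of 32 cell cycle genes 5 had one, Ccnd1, Cdk4, Cdkn1b, Cdkn2c and Rb1, and none was a mitotic gene of the list such as Mki67, Top2a or Cdk1.

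The lineage transcription factor and OPC surface lists, with 46.4% and 41.7%, were above the overall share of 17.9%, and the myelin list, with 10.0%, was below it. A member region was found at 13 of 28 OPC and oligodendrocyte lineage transcription factors (Hey1, Id2, Nfia, Nfib, Olig1, Olig2, Sox10, Sox2, Sox4, Sox5, Sox6, Tcf7l2 and Zfp365) and at 10 of 24 OPC receptor and surface genes (Bcan, C1ql1, Cspg4, Cspg5, Epn2, Fgfr1, Lingo1, Luzp2, Pdgfra and Sema5a). Each of the 20 myelin genes had promoter peaks throughout the adult libraries, but of these Mbp, which encodes myelin basic protein, and Plekhb1 alone were members. Of the immediate early genes 9 of 24 had a member region; Fos, Jun, Egr1 and Junb did not. Markers of the other cell types that a forebrain sort could hold had a member region at 0 of 20 neuron, 0 of 15 microglia, 0 of 16 endothelial and mural and 0 of 12 fibroblast genes, and at 1 of 15 astrocyte genes, Glul (glutamine synthetase). In all 3 adult lists, however, promoter peaks were present at 5 of the neuron, 7 of the astrocyte, 3 of the endothelial and mural, 1 of the microglia and 1 of the fibroblast genes. Of the OPC markers, Pdgfra, Cspg4, Olig1, Olig2 and Sox10 were members, whereas Ptprz1, Gpr17 and Nkx2-2 were not.

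The stretch of DNA under peaks was longer in adult OPCs. The median member was covered over 377, 896 and 333 bp in neonatal replicates 1, 2 and 3 and over 1218, 1185 and 1378 bp in the adult replicates. The means of these medians were 535 ± 313 bp (SD, n = 3) and 1260 ± 103 bp (SD, n = 3), and the adult libraries exceeded the neonatal ones in 9 of 9 pairs, by 2.61-fold on the log scale (p = 0.1 by the exact two-sided permutation test over libraries, with an adjusted p of 0.167 over 5 quantities). The groups did not overlap, but neonatal replicate 2 lay closer to the adult libraries than to the other neonatal ones; without it, on the same regions, the log2 difference was 1.83 in place of 1.38. The adult lists were also the longest, and the longest neonatal list, replicate 2, had the largest neonatal median. Among the adult lists the order was not kept: replicate 2, with 72661 peaks, had 1185 bp and replicate 1, with 72278, had 1218 bp. With an equal number of the strongest peaks taken from every list, which left 2411 regions, the log2 difference was 1.44; the part of read depth, which is unknown, was not tested.

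**Figure D1:**
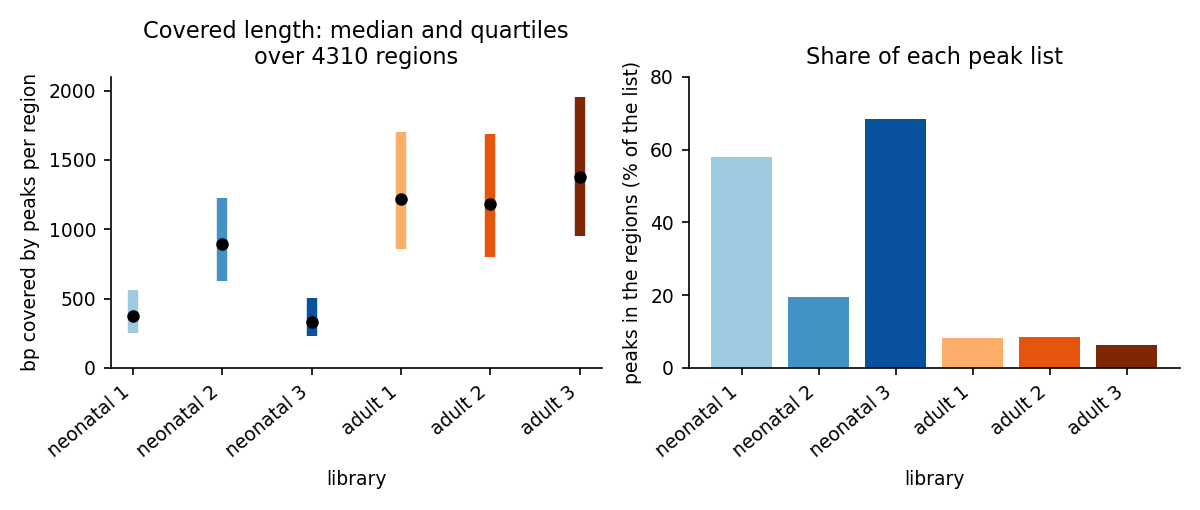
Left, bp of each of the 4310 promoter regions covered by peaks in each library (dot, median; bar, from the lower to the upper quartile). Right, the share of each library's peak list that lies in these regions. Medians run from 333 to 896 bp in neonatal and from 1185 to 1378 bp in adult libraries, and the shares fall from 57.9% and 68.5% in the shortest lists to between 6.25% and 8.38% in the adult ones.

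In 3289 of 4310 regions (76.3%) each adult library covered more bases than each neonatal library, and in 6 (0.139%) the reverse held. Over all 4647 regions with a peak in every list, 75.3% were longer in adult and 0.151% longer in neonatal libraries, but that background holds the members themselves. Among the 337 of these regions that are not members, 209 (62.0%) were longer in every adult library; the difference from 76.3% was not tested. Set against neonatal replicates 1 and 3 alone, a choice made after the values were seen, the shares were 95.5% of members and 88.7% of the 337. Covered length at promoters relative to the other regions present in all lists did not differ detectably between the ages (log2 difference of the ratio -0.237, exact two-sided permutation test, p = 0.3). The number of peaks per region was 1.22, 1.42 and 1.17 in neonatal and 1.37, 1.41 and 1.12 in adult libraries (exact two-sided permutation test, p = 1). Regions covered over more than 5000 bp numbered 0, 8 and 0 in the neonatal and 102, 101 and 137 in the adult lists.

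The additional length lay on both sides of the start site. The farthest covered base in the direction of transcription was at a median of 377, 605 and 357 bp in neonatal and 760, 743 and 830 bp in adult libraries, a mean difference of 331 bp (exact two-sided permutation test, p = 0.1; adjusted p = 0.167). Against the direction of transcription it was at -6, 317 and -20 bp in neonatal and 469, 472 and 548 bp in adult libraries, a difference of 399 bp (exact two-sided permutation test, p = 0.1; adjusted p = 0.167). A negative value means that the outermost covered base was still downstream of the start. In neonatal replicates 1 and 3 the median upstream edge thus lay within 20 bp of the start, whereas in neonatal replicate 2 and the adult libraries it lay at least 317 bp upstream. Where another gene started upstream on the opposite strand, the median upstream extent was larger than at the other members in every library, for example 390 against 310 bp in neonatal replicate 2 and 510 against 463 bp in adult replicate 1, and the downstream extent was smaller, 527 against 615 bp and 683 against 768 bp in the same libraries.

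**Figure D2:**
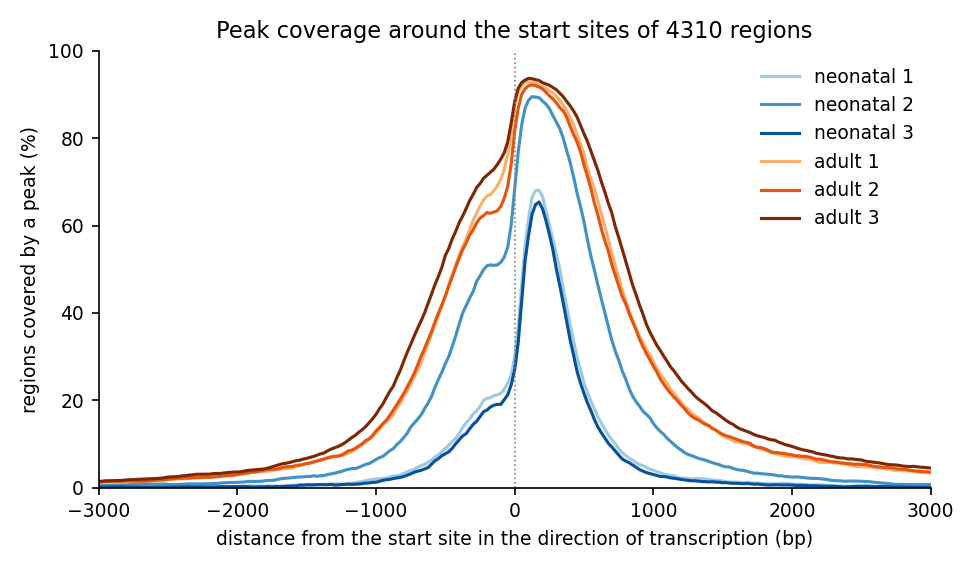
Percentage of the 4310 regions covered by a peak at each distance from the start site (horizontal axis, bp in the direction of transcription), 1 line per library. At 150 bp downstream, 64.8% to 89.4% of regions were covered in neonatal and 92.0% to 93.4% in adult libraries; at 500 bp upstream the values were 7.80% to 28.4% and 43.9% to 53.2%.

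At the start site itself, 30.0%, 68.5% and 27.0% of the regions lay under a peak in neonatal replicates 1, 2 and 3, and 87.5%, 81.7% and 88.4% in the adult replicates. At 1000 bp downstream the values were 4.06%, 14.7% and 3.04% against 28.9%, 27.8% and 34.1%. Each neonatal library was below each adult library at these positions.

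The position of the strongest point was shared. The summit of the strongest peak lay at a median of 151, 144 and 153 bp downstream of the start site in neonatal and 149, 145 and 150 bp in adult libraries, and between 75.6% and 76.9% of the summits of each library were downstream. All 6 libraries had a dominant class of summits 100 to 200 bp downstream and a minor one upstream of the start. Within a region the 6 summits spread over a median of 191 bp, and in 30.3% of regions all 6 fell within 100 bp. Summit positions are the authors' and were placed relative to the start site that the lists name.

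**Figure D3:**
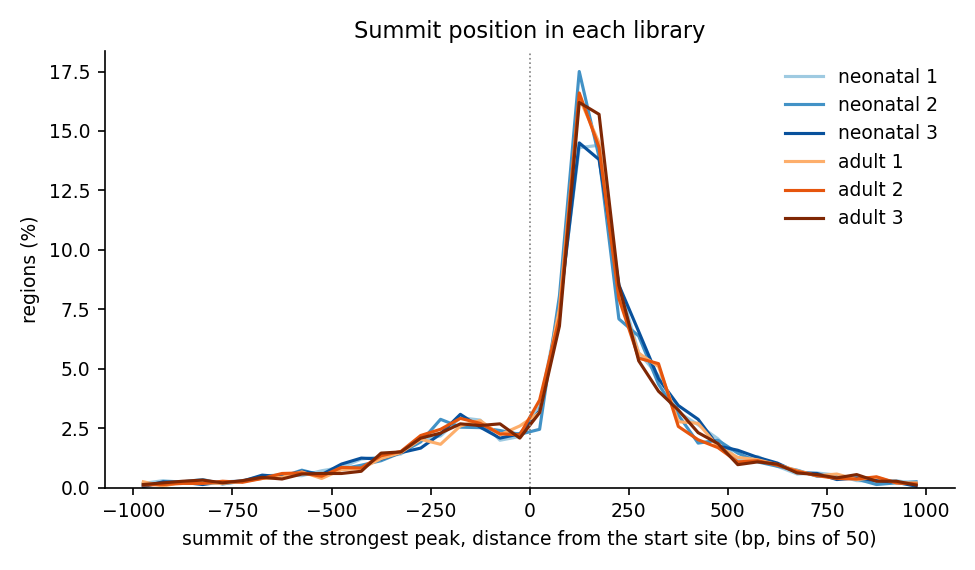
Position of the summit of the strongest peak relative to the start site, in bins of 50 bp, as a percentage of the 4310 regions in each library. The bin from 100 to 150 bp downstream held 14.3% to 17.5% of the regions in all 6 libraries, and the lines of the 2 ages overlap.

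Because fold enrichment is on a different scale in each list (medians over members of 5.31, 9.12 and 4.95 in neonatal and 15.3, 10.8 and 11.8 in adult libraries), each region was ranked by its highest fold among the same 4310 regions in each library, rank 1 being the highest. Across regions, Spearman correlations of these ranks were 0.64 to 0.65 between adult libraries, 0.33 to 0.40 between neonatal libraries and 0.25 to 0.40 between the ages. Correlations of covered length were 0.91 to 0.92, 0.51 to 0.59 and 0.32 to 0.69 in the same order. Regions are not independent replicates and share their libraries, so these are descriptions. The ranges between neonatal libraries and between ages overlap for both measures. By covered length, neonatal replicate 2 correlated at 0.69, 0.67 and 0.64 with adult replicates 1, 2 and 3. Its values with neonatal replicates 1 and 3 were lower, 0.59 and 0.51. The strongest 431 regions by mean neonatal rank included 160 (37.1%) of the strongest 431 by mean adult rank.

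The 10 regions with the highest mean rank belonged to Atp6v0c, Fbxl14, Atxn7, Klf7, Prdm10, Lrp6, Stam2, 1810026B05Rik, Bcl6 and Csad. Atp6v0c (chr17:24168599-24170420), the proton channel subunit of the vacuolar ATPase, ranked 4, 24 and 7 in the neonatal and 20, 165 and 33 in the adult libraries, with folds of 12.7, 19.6 and 11.4 and of 37.2, 19.6 and 26.9. Fbxl14 (chr6:119478596-119481405), a substrate receptor of a ubiquitin ligase, ranked 1, 7 and 169 and 1, 52 and 49. Atxn7 (chr14:14011910-14013942), a subunit of the SAGA histone acetyltransferase complex, ranked 6, 6 and 57 and 83, 27 and 124. Ranks of both ages overlapped at all 10, but the choice by mean rank over all 6 libraries already asks for high ranks in both. Of all members, 10.5% had all adult ranks higher and 12.5% all neonatal ranks higher. Klf7 is a Krüppel-like transcription factor, Lrp6 a Wnt co-receptor, Stam2 an endosomal sorting protein, Bcl6 a transcriptional repressor and Csad an enzyme of taurine synthesis. The summit of these promoters stayed close to 1 position: in Prdm10 it lay 473 to 520 bp downstream and in Fbxl14 278 to 302 bp upstream of the start in all 6 libraries.

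All 3 adult ranks lay above all 3 neonatal ranks in 451 regions (10.5%), and all 3 neonatal ranks above all 3 adult ranks in 540 (12.5%). These percentages are themselves the background for the members named next. When −log10 p replaced fold, 369 of the 451 and 478 of the 540 had the same call. By covered length, 166 of the 451 and 285 of the 540 had the same call, so the call depends on the measure of strength. On the same 4310 regions, where fewer ranks have to separate once a library is left out, the counts were 698 and 782 without neonatal replicate 1, 714 and 816 without neonatal replicate 2, and 717 and 797 without neonatal replicate 3. When the regions were chosen anew from the other 5 lists, they were 899 and 994 of 5535, 711 and 814 of 4304, and 1015 and 1156 of 6261 in the same order.

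**Figure D4:**
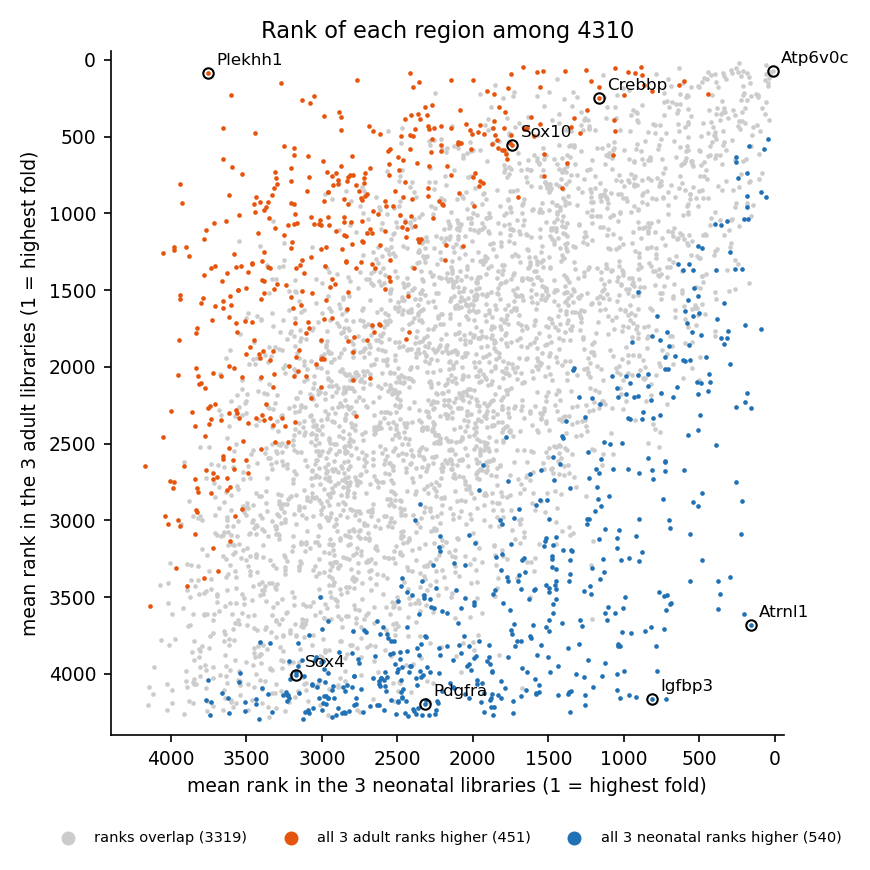
Mean rank of fold in the 3 neonatal libraries (horizontal) against the 3 adult libraries (vertical) for the 4310 regions, rank 1 being the highest fold; both axes run from low to high enrichment. Orange marks the 451 regions with all adult ranks higher, blue the 540 with all neonatal ranks higher, and 8 named regions are circled.

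Among regions ranked higher in adult OPCs, Plekhh1 (chr12:79028147-79035454), which encodes a pleckstrin homology domain protein, had the largest difference, with neonatal ranks of 3538, 3838 and 3888 and adult ranks of 51, 191 and 11. Its covered length was 508, 741 and 332 bp in the neonatal and 6075, 6546 and 7271 bp in the adult libraries. The groups were far apart in both measures. A Ralgds promoter (chr2:28533451-28541113; a guanine nucleotide exchange factor for Ral GTPases) ranked 3600, 3830 and 3382 against 310, 133 and 247, and Adap1, an Arf GTPase-activating protein, 4206, 2695 and 4074 against 3, 582 and 743. Dock3, Klhl2, Tmod2 (an actin filament cap), Pcolce2 and Ptpn11 (the SHP2 phosphatase of receptor tyrosine kinase signalling) completed the 8. All 8 were listed as higher in adult cells in the authors' deposited table, with log2 fold changes from 1.91 to 2.67, where 81.0% of all members had such a site; that table was made from the same libraries.

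Among regions ranked higher in neonatal OPCs, Atrnl1 (chr19:57610196-57611851), an attractin-like membrane protein, ranked 233, 226 and 12 in the neonatal and 3208, 4134 and 3699 in the adult libraries. Its covered length overlapped between the ages, at 749, 1630 and 455 bp against 1365, 546 and 941 bp. Cacng4, an auxiliary subunit of AMPA-type glutamate receptors, ranked 334, 165 and 1662 against 4073, 4234 and 4186. Igfbp3, a binding protein of insulin-like growth factors, ranked 598, 776 and 1068 against 4265, 3987 and 4234. Ampd3 (an AMP deaminase), Fam174b, Suclg2 (a subunit of succinyl-CoA ligase), Gm36388 and Cdca7l were the others. Of these 8, Fam174b and Cdca7l had a listed site in the authors' deposited table, with log2 fold changes of -1.21 and -1.01 (higher in neonatal cells), and the other 6 had none. Of all 4310 members, 0.278% had a site higher in neonatal cells and 808 had no site. That table was made from the same libraries as the ranks.

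By mean covered length, Sulf2, Epn2 and Adgrb1 were among the 5 widest regions of both ages. Their neonatal means rest on neonatal replicate 2: in replicates 1 and 3 Brd2, with 2789 and 2350 bp, was wider on average than each of them. Sulf2 (chr2:166134091-166156563), a sulfatase that edits heparan sulfate, was covered over 2667, 10998 and 1373 bp in the neonatal and 20680, 21102 and 21481 bp in the adult libraries. Epn2 (chr11:61525907-61548952), an epsin of clathrin-mediated endocytosis, was covered over 2301, 8524 and 795 bp against 22301, 21313 and 23046 bp, and Adgrb1, an adhesion receptor, over 1755, 6956 and 549 bp against 18791, 21418 and 21093 bp. Adult coverage exceeded every neonatal value at these 3, as it did at 76.3% of all members. Tmcc2 and the upstream Ralgds promoter were among the 5 widest in adult libraries; Tmcc2 was covered over 312, 1982 and 269 bp in the neonatal and 21562, 21265 and 22621 bp in the adult libraries. Gm14488 and Midn completed the 5 widest in neonatal libraries. Midn, which encodes midnolin, was covered over 2790, 4310 and 3070 bp in the neonatal and 2393, 2356 and 2870 bp in the adult libraries, values that overlap.

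The lineage transcription factors divided into broad and narrow regions. Sox10 (chr15:79155085-79171452), the HMG-box factor required for oligodendrocyte identity, was covered over 2356, 5120 and 458 bp in the neonatal and 13822, 15252 and 16314 bp in the adult libraries, and its ranks were 1164, 2486 and 1568 against 1102, 282 and 285. Olig2 (chr16:91220983-91231218, a region assigned to the overlapping transcript Gm49614 but named for Olig2 in all 6 lists) was covered over 1821, 5959 and 1026 bp against 9011, 8962 and 9936 bp. Olig1 (chr16:91267986-91273519) was covered over 1305, 2019 and 438 bp against 4098, 4761 and 5336 bp. In these 3 regions every adult library exceeded every neonatal one in length, as in 76.3% of all members. In the ranks this was so at Sox10 and at Zfp365, whereas Olig1 and Olig2 had overlapping ranks.

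Sox5 and Sox4 ranked higher in neonatal libraries. Sox5 ranked 1382, 2734 and 2395 in the neonatal and 3730, 3425 and 3658 in the adult libraries, and Sox4 3378, 2922 and 3210 against 3904, 3934 and 4182, in both cases without overlap. The covered lengths of Sox5 were 640, 1299 and 506 bp against 945, 1014 and 844 bp and overlapped. Sox6 was covered over 302, 1028 and 656 bp against 423, 494 and 612 bp, which overlap. Sox2, covered over 156, 944 and 192 bp against 1474, 1165 and 1315 bp, was longer in every adult library. So were Hey1 and the nuclear factor I genes Nfia and Nfib of glial development, beside 76.3% of all members. The ranks of these 4 overlapped. At Sox4, Tcf7l2 and Id2 the lengths overlapped too. Of the 13 regions of this list, 2 had ranks higher in adult and 2 higher in neonatal libraries, beside 10.5% and 12.5% of all members.

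Pdgfra (chr5:75152759-75155229), the gene whose reporter was used to sort the cells, was covered over 1638, 2460 and 991 bp in the neonatal and 640, 424 and 974 bp in the adult libraries, so that every neonatal value was the larger. Its ranks were 1598, 1912 and 3442 in the neonatal and 4160, 4236 and 4194 in the adult libraries, and the authors' deposited table gives it a log2 fold change of -1.23 with an adjusted p of 0.027. The adult libraries still had a peak there in each list, at folds of 5.78, 3.50 and 3.87. Cspg4, which encodes NG2, ranked 2772, 2486 and 1718 against 3724, 3346 and 3436, but its covered length overlapped, at 501, 2318 and 934 bp against 2064, 2388 and 2256 bp, and the authors' deposited table gives it a log2 fold change of 1.20, higher in adult. The Cspg4 region (chr9:56866914-56869449) lies wholly downstream of the start, with its strongest summits at 2907 to 3745 bp. None of its peaks covered any of the 200 bases before the RefSeq start. Cspg5, another chondroitin sulfate proteoglycan, ranked 746, 185 and 2395 against 2988, 3710 and 4253. Of the 11 regions of the surface list, the wide Epn2 region ranked higher in adult libraries and these 3 ranked higher in neonatal ones. Of all members, 10.5% and 12.5% did so. The other 7 regions of the list overlapped.

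**Figure D5:**
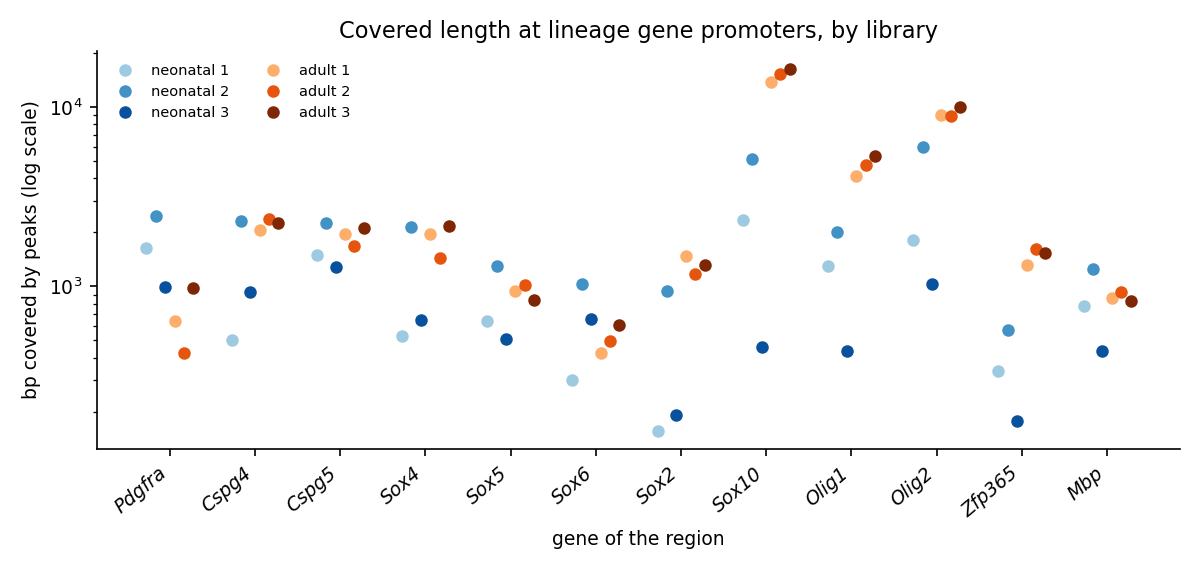
Bases covered by peaks (log scale) in each library at the promoter regions of 12 lineage genes. At Sox10, Olig1, Olig2, Sox2 and Zfp365 all adult values lie above the neonatal ones, at Pdgfra all lie below, and at the other genes the ages overlap. Of all 4310 regions, 76.3% had every adult value above every neonatal one and 0.139% the reverse.

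Of the myelin genes, Mbp was covered over 780, 1255 and 435 bp in the neonatal and 860, 928 and 832 bp in the adult libraries, which overlap, and had no listed site in the authors' deposited table. Plekhb1 was covered over 1669, 3011 and 820 bp against 5260, 5354 and 6155 bp.

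The acetylation machinery was among the higher-ranked lists, with a median mean rank of 1326 over 22 regions, against 2164 over the regions of all protein-coding genes. Ep300 (chr15:81585361-81587103), which encodes p300, ranked 41, 438 and 2 in the neonatal and 130, 16 and 300 in the adult libraries. Crebbp, its paralog CBP, ranked 1293, 1454 and 740 against 48, 245 and 452, and Hdac5, a class IIa deacetylase, 3000, 2758 and 3390 against 588, 77 and 46; neither overlapped. Hdac11, the class IV deacetylase, was covered over 429, 1130 and 153 bp against 5750, 6105 and 7737 bp. Naa40, which acetylates the N terminus of histones H4 and H2A, also ranked higher in adult libraries, and of the Kat6b promoters 1 ranked higher in neonatal ones (230, 864 and 282 against 2650, 1456 and 1700). The other 17 regions of the list overlapped in rank. Ranks were thus higher in adult libraries at 4 of the 22 and in neonatal ones at 1, beside 10.5% and 12.5% of all members. All 22 had a site listed as higher in adult cells in the authors' deposited table, beside 81.0% of all members.

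Among the histone methylation genes, Ezh1, Kmt2b and 1 of the Setd2 regions ranked higher in adult libraries; the Setd2 call did not hold by −log10 p, and the other Setd2 region overlapped. Ezh1, a methyltransferase of Polycomb repressive complex 2, ranked 3828, 3710 and 2520 in the neonatal and 1646, 664 and 781 in the adult libraries. Ehmt1, an H3K9 methyltransferase, ranked 2035, 985 and 388 against 2531, 3869 and 3344, higher in neonatal libraries by fold but not by −log10 p. Of the 23 histone methylation regions, 3 thus ranked higher in adult and 1 in neonatal libraries, beside 10.5% and 12.5% of all members. Ranks were higher in adult and in neonatal libraries at 0 and 1 of 10 ribosomal protein regions and at 0 and 2 of 23 splicing factor regions. The counts were 0 and 1 of 6 cell cycle regions and 1 and 2 of 21 regions of general promoter-binding factors. Translation factors had 2 and 1 of 17 and immediate early genes 1 and 3 of 10. The shares of all members were again 10.5% and 12.5%.

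The authors' deposited table lists 43888 differential sites between the ages, each with an adjusted p at or below 0.05, of which 43634 favour adult cells and 254 neonatal cells. A positive log2 fold change was read as higher in adult because 86.5% to 96.8% of positive sites lay in a region of each adult list and 11.0% to 29.5% in one of each neonatal list, and negative sites the reverse. Of the 4310 promoters, 3490 (81.0%) had a site higher in adult and 12 (0.278%) a site higher in neonatal cells, and 808 had none. Over all merged regions with a peak in at least 2 lists, 79.6% had a site higher in adult and 0.454% one higher in neonatal cells, so the share was near the background. The size was smaller at these promoters: the median log2 fold change was 1.38 (quartiles 1.20 and 1.60), against 2.05 at the other 16038 promoter regions with a site and 2.41 over all listed sites. Promoters with a peak in all adult and no neonatal list had a median of 2.81. The requirement of a peak in every neonatal list bears on this order, and no test was made of it.

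For members, the largest positive values of log2 fold change that the authors' deposited table gives were 5.75 at Coro2b (a coronin of the actin cytoskeleton), 4.76 at Kansl1 (a scaffold of the NSL histone acetyltransferase complex), 4.36 at Tmbim1, 3.61 at Pllp and 3.24 at Mir219a-2. Pllp (chr8:94678898-94688122) encodes plasmolipin, a protein of the myelin sheath, and was covered over 239, 976 and 214 bp in the neonatal and 9029, 8877 and 8903 bp in the adult libraries. The region of Mir219a-2 (chr2:29838151-29856702) was covered over 619, 1837 and 408 bp against 17977, 18141 and 18226 bp, and ranked 2311, 3062 and 4016 against 322, 302 and 160. Both were far longer in every adult library. The sites of Coro2b and Kansl1, 400 bp long, lie almost wholly outside the promoter regions, with 39 and 7 bp inside, so their values describe neighbouring DNA; of the 3502 members with a site, 6 had most of it outside the region. The Pllp, Tmbim1 and Mir219a-2 sites lie wholly inside. miR-219 is a microRNA that promotes oligodendrocyte differentiation. Its mature sequence, from the hairpin on the minus strand (chr2:29845689-29845709), is shown with the seed, bases 2 to 8, in capitals because it defines the targets of the gene with this change.
miR-219a-5p: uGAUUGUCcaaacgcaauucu

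The 12 promoters with a site higher in neonatal cells belonged to Gm17826 (log2 fold change -1.54), Kcnk2 (-1.30), Pdgfra (-1.23), Fam174b (-1.21), Bmp7 (-1.15), Gm13330 (-1.14), Mir203 (-1.12), Arhgef10l (-1.07), AW047730 (-1.05), Tead1 (-1.04), Cdca7l (-1.01) and Shisa9 (-0.97), as the authors' deposited table gives them. The ranks of all 12 were higher in every neonatal than in every adult library, beside 12.5% of all members. The deposited table was made from the same libraries, so these ranks are no separate support for it. When regions were chosen without adult replicate 2 or without adult replicate 3, 19 promoters had such a site; with equal list lengths, or with an adjusted p under 0.005 required of the site, 0 had one. Bmp7 (chr2:172938915-172940991), a bone morphogenetic protein, was covered over 1141, 2077 and 760 bp in the neonatal and 223, 310 and 510 bp in the adult libraries. Kcnk2, a potassium channel, was covered over 674, 777 and 446 bp against 408, 207 and 479 bp. The 6 regions longer in every neonatal library were Pdgfra, Bmp7, Shisa9, Rapgef4, Kcnk10 and Shisal1. Shisa9 and Shisal1 belong to the Shisa family, Shisa9 being an AMPA receptor auxiliary protein, and Kcnk10 is a potassium channel of the same subfamily as Kcnk2.

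The regions were spread over the autosomes in proportion to the promoters of the adult lists, of which 18.7% (chromosome 7) to 25.5% (chromosome 10) were members. On the X chromosome 8 of 414 adult promoter regions (1.93%) were members. The 8 were assigned to Foxp3, B630019K06Rik, Kdm6a, Stag2, Mtmr1, Zfx, Nexmif and Zmat1. X-linked promoter peaks made up 1.96% to 2.18% of promoter peaks in the adult lists, and 0.464%, 1.68% and 0.276% in neonatal replicates 1, 2 and 3. Among the strongest 7353 peaks of each list, the length of the shortest list, they made up 0.225% to 0.462% in all 6 libraries.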

How the data were processed

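The 6 peak lists are the authors' own, one per library, so peaks were called on single libraries. Per the file headers, each deposited peak has a position, a score, a fold enrichment (a linear ratio), −log10 of a p-value and of a q-value, a summit, and the gene, start site and class of a ChIPseeker annotation. The submitters' processing notes name Trim Galore, Bowtie2 2.4.5, SAMtools, deepTools, MACS2, DiffBind, ChIPseeker and the build GRCm38, without roles or settings. A further table of the authors gives, for each differential site, the log2 fold change together with raw and adjusted p-values; its normalization is not given in the sources used here. Peak starts in the files count from 0, and coordinates are printed counted from 1.

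Peaks were merged and regions chosen as the report states, with Python 3.11.15, numpy 2.4.6 and pandas 2.3.3, after the steps had been tested on simulated lists. A region took the gene that its promoter peaks named in most lists, then the nearest; list genes also counted where all 6 lists named them. Covered length is the sum of peak lengths in a region. A region had its ranks apart where all 3 of one age exceeded all 3 of the other. Library medians were compared by exact two-sided permutation tests of 3 against 3 (20 arrangements), with Benjamini-Hochberg adjustment over 5 quantities: covered length, extent on each side of the start, peaks per region and covered length relative to non-promoter regions. A region's site in the authors' table was the overlapping one with the smallest p. Sequences are from the RefSeq tables of GRCm38.p6.

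Genes were named by rule: the 10 highest mean ranks, the 5 widest regions per age, the 8 largest differences of rank per direction, the 5 extreme table values per direction, members of the lineage, surface, myelin and histone acetylation lists, and 3 regions on each side of the selection. Examples of the other lists, the X-linked genes, the 12 sites higher in neonatal cells and the 6 regions longer in neonatal libraries were chosen after their values were seen. The members and gene lists were chosen with earlier results of these data known.

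Alternatives were a q-value under 0.005, merging within 500 bp or only by 100 bp of overlap, equal list lengths, promoters within 1 kb, other measures of strength, and each library left out.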

Additional observations from a re-analysis of the deposited data

How the results depend on the processing

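Covered length and both extents kept their direction under every alternative tried, with log2 differences of 1.20 to 1.83 for length and differences of 272 to 412 bp downstream and 332 to 526 bp upstream; none could pass 0.05 in this design. Peaks per region had no stable direction: the difference of 0.0287 became 0.592 with merging within 500 bp, -0.130 with an equal number of strongest peaks per list and ranged from -0.0520 to 0.0941 when single libraries were left out, being negative without each adult library. Covered length relative to non-promoter regions kept a negative difference under every alternative, from -0.387 to -0.158. By the exact two-sided permutation test it had p = 0.1 with equal list lengths, without neonatal replicate 2 and without neonatal replicate 3. The number of regions fell to 2411 with equal list lengths. Regions with ranks higher in adult and in neonatal libraries numbered 199 and 188 with equal list lengths, 745 and 887 by covered length, 714 and 816 on the same regions without neonatal replicate 2, 698 and 782 without neonatal replicate 1 and 717 and 797 without neonatal replicate 3 (alternatives chosen after seeing the data), and 636 to 1015 and 714 to 1156 when 1 library was left out and the regions, 4304 to 6261, were chosen anew. Promoters with a site higher in neonatal cells numbered 19 with merging over 500 bp, 0 with equal list lengths, 0 at an adjusted p under 0.005, and 11 to 19 without single libraries, 19 without adult replicate 2 and without adult replicate 3. With the replicate block (exact sign-flip permutation over 3 pairs, smallest p 0.25) the covered length had p = 0.25, and the differences 1.38, 331, 399, 0.0287 and -0.237 are the same by construction. The libraries share only a number: those with the same number did not deviate together (correlations across regions of -0.007, 0.023 and -0.016). Read depth is unknown, so no value is corrected for it.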
